A study of Rattus norvegicus with 24 samples.

Results

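Heat shock and chaperone genes were followed in rats given fentanyl or saline, in 2 brain regions of the mesolimbic reward circuit: the ventral tegmental area (VTA), where its dopamine neurons lie, and their target, the nucleus accumbens (NAc). They were 6 of the 32552 genes in the count tables, taken by Ensembl identifier: Hspa8, Hsph1, Hsp90ab1, Hspa5, Hspb1 and Hmox1, each present on the named chromosome. Hspa8 was selected on a measured value, its lower NAc level with fentanyl in an earlier look at these data, so its NAc difference is described here without a test. The other 5 were chosen for what their proteins do, with earlier results of these data known.

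All animals were Sprague Dawley rats, an outbred strain, and each library held ribosome-depleted total RNA from bilateral punches of 1 region of 1 rat. The 24 libraries came from 14 rats: in the VTA, 3 fentanyl and 2 saline females with 3 fentanyl and 2 saline males, and in the NAc, 4 fentanyl and 3 saline females with 4 fentanyl and 3 saline males. Tissue was taken at the time at which the last choice session would have been run, and the series concerns fentanyl-versus-food choice and opioid withdrawal. The labels give no dose, route, duration or age for either treatment, nor do they say which of these rats were in withdrawal. Each combination of sex and treatment carried its own prefix of animal codes, so anything that went with the prefix cannot be told apart from the group. In such bulk tissue, fewer cells of a type and less RNA per cell cannot be told apart.

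Molecular chaperones bind unfolded stretches of other proteins and help them to fold, move or be degraded. In the cytosol, HSP70 proteins such as the product of Hspa8 (HSC70) bind and release clients in a cycle driven by ATP, an HSP110 protein such as the product of Hsph1 exchanges their nucleotide, and HSP90 proteins such as the product of Hsp90ab1 finish the folding of kinases and steroid receptors. In neurons HSC70 also strips clathrin from endocytosed vesicles. Hspa5 encodes BiP, the HSP70 of the endoplasmic reticulum, whose transcription rises in the unfolded protein response. Hspb1 encodes HSP27, a small heat shock protein that holds unfolded proteins without ATP, and Hmox1 encodes haem oxygenase 1, an inducible enzyme that degrades haem and is a classic target of the oxidative stress factor NRF2.

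The 6 genes lie on 5 chromosomes in the coordinates of the deposited tables, whose genome build was not given in the sources used here. Hspa8 (ENSRNOG00000034066) spans 44990014 to 44993179 on the plus strand of chromosome 8 and has 9 exons with 1938 bases. Hsph1 (ENSRNOG00000000902) spans 6322668 to 6341902 on the minus strand of chromosome 12 and has 18 exons with 3446 bases. Hsp90ab1 (ENSRNOG00000019834) spans 17817721 to 17823243 on the plus strand of chromosome 9 and has 10 exons with 2661 bases. These are the cytosolic HSP70, its exchange factor and the cytosolic HSP90. Hspa5 (ENSRNOG00000018294) spans 13838304 to 13842762 on the plus strand of chromosome 3 and has 9 exons with 2562 bases. Hspb1 (ENSRNOG00000023546) spans 23839399 to 23841049 on the minus strand of chromosome 12 and has 3 exons with 879 bases. Hmox1 (ENSRNOG00000014117) spans 14508616 to 14515456 on the plus strand of chromosome 19 and has 5 exons with 1566 bases. No exon of the 6 overlapped an exon of another gene in the tables. RefSeq names 33 pseudogenes of Hspa8 and 23 of Hsp90ab1, and how reads shared with such copies were counted was not given, so the levels of Hspa8 and Hsp90ab1 are uncertain to that extent.

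Promoters of 5 of the 6 genes were found in the RefSeq table of build GRCr8; Hmox1 was not matched. The 3 printed here belong to the HSP70 genes of the cytosol and the endoplasmic reticulum and to the HSP110 gene, and they are shown because they hold the rarest motifs of those searched. Each is the 250 bases before the transcript start, with motif matches in capitals: Hspa8 at chr8:50080264-50080513 on the plus strand, Hsph1 at chr12:10427118-10427367 on the plus strand and Hspa5 at chr3:38452766-38453015 on the plus strand. Hsph1 lies on the plus strand in GRCr8 and on the minus strand in the deposited tables, so these positions belong to GRCr8 alone.
Hspa8: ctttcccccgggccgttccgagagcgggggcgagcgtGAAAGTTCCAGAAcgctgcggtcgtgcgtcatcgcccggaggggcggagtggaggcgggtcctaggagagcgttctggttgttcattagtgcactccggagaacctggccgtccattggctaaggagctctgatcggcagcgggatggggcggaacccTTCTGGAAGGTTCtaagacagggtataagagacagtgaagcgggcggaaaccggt
Hsph1: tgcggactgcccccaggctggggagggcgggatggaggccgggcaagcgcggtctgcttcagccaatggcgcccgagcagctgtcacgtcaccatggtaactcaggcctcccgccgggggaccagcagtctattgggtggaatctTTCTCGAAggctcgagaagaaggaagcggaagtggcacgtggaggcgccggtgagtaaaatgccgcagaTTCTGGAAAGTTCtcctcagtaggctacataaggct
Hspa5: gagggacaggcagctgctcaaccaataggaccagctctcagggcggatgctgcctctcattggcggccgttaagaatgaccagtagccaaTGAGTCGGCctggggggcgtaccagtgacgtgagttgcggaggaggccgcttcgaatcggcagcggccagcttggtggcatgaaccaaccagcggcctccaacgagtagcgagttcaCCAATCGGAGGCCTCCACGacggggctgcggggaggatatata

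A heat shock element, the site bound by heat shock factor 1, is built of inverted GAA units. Both strands of the 300-base windows (250 bases before the start and 50 after it) were searched for 3 units in a row (GAA, TTC and GAA, or TTC, GAA and TTC, with 2 free bases between neighbours), which 0.798% of 33469 rat promoters held. The Hspa8 window held 2 such matches, at positions -213 to -201 and -55 to -43 from the start. Hsph1 held 1, at -36 to -24. Matches to 2 units (GAANNTTC or TTCNNGAA), which were held by 15.9% of promoters, lie inside each match to 3 units by construction, and Hsph1 had a separate one at -105 to -98. Hspb1 had matches to 2 units at -129 to -122 and -109 to -102 and none to 3. Hspa5 held the ER stress element (CCAAT and CCACG with 9 free bases between them) at -43 to -25, a motif of the unfolded protein response found in 0.0657% of promoters. It also held a core of the antioxidant response element (TGACNNNGC or TGAGNNNGC, in 27.1% of promoters) at -160 to -152. The Hsp90ab1 window held none of these letters.

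**Figure D1:**
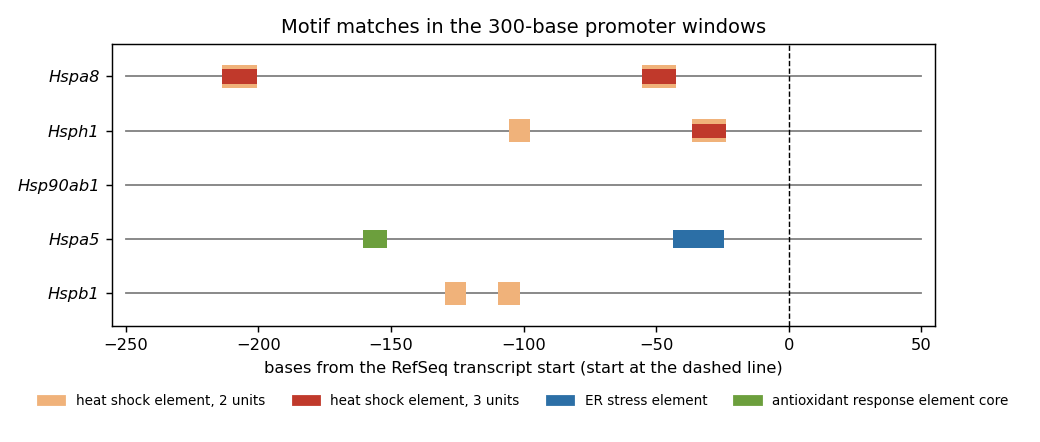
Positions of motif matches in the 300-base promoter windows of 5 genes, in bases from the RefSeq transcript start; boxes are coloured by motif. Hspa8 has 2 matches to 3 heat shock element units, Hsph1 has 1, Hspa5 has the ER stress element and Hsp90ab1 has no match.

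Gene counts per library summed to between 4493742 and 6300965 in the VTA and between 3460190 and 5011808 in the NAc. Of these, 17.6 to 26.9% in the VTA and 22.1 to 36.7% in the NAc came from mitochondrial features. In NAc females this share was 31.6% ± 3.51 in fentanyl rats (SD, n = 4) and 24.4% ± 2.08 in saline rats (SD, n = 3), with no overlap. In NAc males it was 27.8% ± 0.665 in fentanyl rats (SD, n = 4) and 28.4% ± 3.23 in saline rats (SD, n = 3). In the VTA it was 24.7% ± 2.89 in fentanyl females (SD, n = 3) against 20.2% ± 1.13 in saline females (SD, n = 2), and 22.9% ± 2.17 in fentanyl males (SD, n = 3) against 18.0% ± 0.566 in saline males (SD, n = 2). The tables hold identifiers without names, so marker genes of the punched regions and of other cell types were not analysed here.

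Per kilobase of exon, the constitutive cytosolic chaperones Hsp90ab1 and Hspa8 were among the highest genes of both regions. Hspb1 and Hmox1 were the lowest of the 6. In the VTA, Hspb1 still stood above 69.2% of the genes with any count and Hmox1 above 58.7%. In the NAc these shares were 65.3% and 42.8%. In the VTA, Hsp90ab1 reached 271.0 ± 28.5 CPM per kilobase, where CPM are counts divided by library size, above 99.6% of the genes with any count there, and Hspa8 reached 200.1 ± 23.1, above 99.3% (SD, n = 10 each). Below these, Hspa5 at 35.2 ± 4.49 and Hsph1 at 33.5 ± 5.23 CPM per kilobase could not be ordered, with Hspa5 the higher in 6 of 10 libraries. Hspb1 at 6.94 ± 4.49 and Hmox1 at 3.68 ± 0.862 CPM per kilobase also overlapped, and Hmox1 was the higher in 2 libraries.

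In the NAc, Hsp90ab1 stood at 194.8 ± 37.3 CPM per kilobase (SD, n = 14), above 99.3% of the genes with any count there. Hspa8 stood at 85.0 ± 32.8 CPM per kilobase in the NAc and Hsph1 at 39.3 ± 8.52 (SD, n = 14 each). Hspa5 followed at 21.6 ± 5.90, Hspb1 at 5.89 ± 3.89 and Hmox1 at 1.20 ± 0.595 CPM per kilobase (SD, n = 14 each). This order held within each of the 14 NAc libraries. The ranges of Hsph1 (27.1 to 52.8) and Hspa5 (13.2 to 33.1) overlapped across libraries, as did those of Hspb1 (1.46 to 14.0) and Hmox1 (0.165 to 2.33). Hmox1 rested on 24 to 50 counts in a VTA library and 1 to 16 in an NAc library, and Hspb1 on 6 to 86 in the VTA and 5 to 54 in the NAc. The other 4 genes had at least 131 counts in every library.

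In the NAc of females, Hsph1, Hsp90ab1 and Hspa5 were lower in fentanyl rats, and the groups did not overlap for any of the 3. With Hspa8 they are the abundant chaperones of the cytosol and the endoplasmic reticulum. Hspa8 was lower without overlap too, but it was picked for its lower NAc level and adds no support. Of the 5 genes that could be tested, 3 fell, 0 rose and 2 did not pass. In the same comparison 13.5% of 13248 genes were called, 5.45% lower and 8.05% higher, and in 13.4% of genes every fentanyl female lay below every saline female. The median log2 fold change of the 5 tested members was -0.62, against -0.00 for all genes tested. A call means an adjusted p under 0.05 by edgeR's quasi-likelihood test, with Benjamini-Hochberg adjustment over all genes tested. Levels below are CPM with the TMM scaling given above, and libraries run in order of replicate number. NAc fentanyl rats are numbered 1, 2, 7 and 8 (females) and 1, 2, 3 and 7 (males), and NAc saline rats 1, 2 and 4 (females) and 1, 3 and 4 (males).

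Hspa8, the constitutive HSP70, read 110.8, 123, 107 and 106 CPM in the 4 fentanyl females, against 280.0, 249.6 and 254 CPM in the 3 saline females. The 2 groups lay far apart, and the 4 fentanyl libraries were close together. The log2 fold change was -1.19 ± 0.12 (SE). In males Hspa8 read 119, 98.7, 151 and 128 CPM with fentanyl, against 195, 159 and 226 CPM with saline. The highest fentanyl male lay just under the lowest saline male, and the log2 fold change was -0.64 ± 0.12 (SE). Both differences describe the contrast by which Hspa8 was picked.

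Hsph1, the HSP110 exchange factor of HSP70, read 93.8, 93.9, 93.3 and 129.7 CPM in fentanyl females, against 174, 171 and 182 CPM in saline females. The first 3 fentanyl libraries were nearly equal and the last, replicate 8, was higher, yet still under every saline female. Hsph1 fell by 0.75 ± 0.11 on the log2 scale (SE; edgeR adjusted p = 0.000361). In males it read 160.2, 125, 121 and 142 CPM with fentanyl and 135, 139 and 137 CPM with saline. The fentanyl males lay on both sides of the saline males, and the log2 fold change was -0.00 ± 0.11 (SE; edgeR adjusted p = 0.997).

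Hsp90ab1, the constitutive HSP90, read 364, 459.6, 426 and 458 CPM in fentanyl females, against 702, 653 and 656 CPM in saline females. Every fentanyl female was lower, and Hsp90ab1 fell by 0.62 ± 0.11 on the log2 scale (SE; edgeR adjusted p = 7e-04). In males it read 569, 475, 478 and 529 CPM with fentanyl and 477, 435 and 575 CPM with saline. These ranges overlapped, and the log2 fold change was 0.05 ± 0.11 (SE; edgeR adjusted p = 0.97).

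Hspa5, which encodes BiP, read 50.6, 40.6, 46.5 and 44.4 CPM in fentanyl females, against 74.1, 70.6 and 84.9 CPM in saline females. It fell by 0.73 ± 0.13 on the log2 scale (SE; edgeR adjusted p = 0.00113). In males the 4 fentanyl libraries at 46.6, 38.5, 52.6 and 33.9 CPM also lay below the 3 saline libraries at 63.3, 68.4 and 59.5 CPM. The male log2 fold change was -0.57 ± 0.13 (SE), with an unadjusted p of 0.000265 that did not pass after adjustment over all genes by edgeR (adjusted p = 0.419). With no filter on low counts the male value was called (edgeR adjusted p = 0.0114).

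Hspb1 and Hmox1, the small heat shock protein and haem oxygenase 1, varied between rats more than between treatments in the NAc. Hspb1 read 10.6, 12.3, 6.36 and 1.28 CPM in fentanyl females and 6.48, 3.82 and 3.94 CPM in saline females. In males it ranged from 1.51 to 4.91 CPM with fentanyl and from 1.78 to 9.04 CPM with saline. The groups overlapped in both sexes, and 1 fentanyl female, replicate 8, was the lowest of all NAc libraries. The log2 fold change of Hspb1 was 0.70 ± 0.60 in females (SE; edgeR adjusted p = 0.474) and -0.36 ± 0.68 in males (SE; edgeR adjusted p = 0.957). Hmox1 ranged from 1.80 to 3.65 CPM in fentanyl females and from 1.12 to 2.76 CPM in saline females, and from 0.258 to 2.27 CPM in fentanyl males and 0.844 to 2.01 CPM in saline males. Its log2 fold change was 0.56 ± 0.49 in females (SE; edgeR adjusted p = 0.48) and 0.08 ± 0.60 in males (SE; edgeR adjusted p = 0.994). At 1 to 16 counts per library, a moderate change of Hmox1 was not detectable at this depth.

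**Figure D2:**
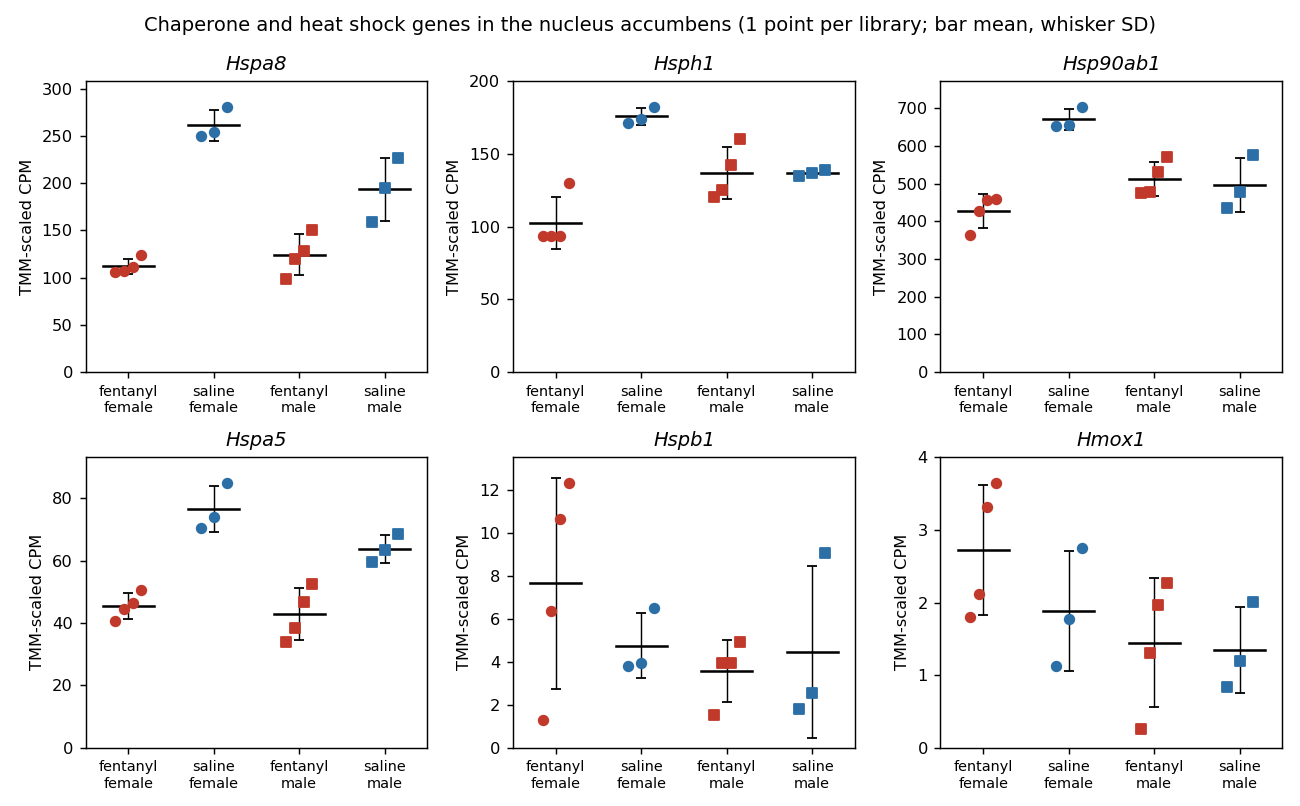
TMM-scaled CPM of the 6 genes in each NAc library, by sex and treatment, with bars at the mean and whiskers of 1 SD. Fentanyl females (4) lie below saline females (3) without overlap for Hspa8, Hsph1, Hsp90ab1 and Hspa5, and fentanyl males (4) lie below saline males (3) for Hspa8 and Hspa5. Hspa8 was picked for its lower NAc level with fentanyl.

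In NAc males, 0 of the 5 tested members were called by edgeR. Hspa5 was the 1 member with an unadjusted p under 0.05, and DESeq2 called 0. Over all 13248 genes edgeR called 0% in males, with 850 at an unadjusted p under 0.05, and DESeq2 called 6 genes. In 3.98% of genes every fentanyl male lay below every saline male, as was true of Hspa5. It was true of Hspa8 as well, which was picked for its lower NAc level.

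Averaged over both sexes, 3 of the 5 tested members fell in the NAc, where 7.51% of genes were called, 2.99% lower and 4.52% higher. Hspa5 fell by 0.65 ± 0.09 on the log2 scale (SE; edgeR adjusted p = 0.000704), Hsph1 by 0.38 ± 0.08 (SE; edgeR adjusted p = 0.00857) and Hsp90ab1 by 0.29 ± 0.07 (SE; edgeR adjusted p = 0.0217). For Hsph1 and Hsp90ab1 this mean covers a called difference in females and one near 0 in males. The Hsp90ab1 call was lost without saline male 4 (edgeR adjusted p = 0.0975), saline female 1 (0.0633) or fentanyl male 2 (0.0526), and with replicate numbers as a block (0.14).

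The mitochondrial share moved with fentanyl in NAc females, as given above. With mitochondrial features left out before scaling, the female log2 fold changes were -0.75 for Hsph1, -0.62 for Hsp90ab1 and -0.73 for Hspa5, and all 3 stayed called. TMM scaling averages over most genes, so leaving out 35 features could hardly move these values. What else goes with the mitochondrial share was not tested.

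The fentanyl effect was set against itself between the sexes, as female minus male. Of the 5 tested members, Hsph1 and Hsp90ab1 were called, both more negative in females, where 0.77% of genes were called, 0.128% lower and 0.642% higher. The difference was -0.74 ± 0.16 on the log2 scale for Hsph1 (SE; edgeR adjusted p = 0.0267) and -0.67 ± 0.15 for Hsp90ab1 (SE; edgeR adjusted p = 0.032). Hspa5 differed between the sexes by -0.15 ± 0.19 (SE; edgeR adjusted p = 0.777), so its fentanyl effect was not shown to differ. Hspa8, described only, differed by -0.55 ± 0.18 (SE). Hspb1 at 1.07 ± 0.91 (SE; edgeR adjusted p = 0.647) and Hmox1 at 0.48 ± 0.78 (SE; edgeR adjusted p = 0.839) did not pass.

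Both calls of a sex difference hung on single libraries. The Hsph1 call was lost when fentanyl male 1 or 7, saline male 3 or 4, or saline female 1, 2 or 4 was left out (edgeR adjusted p from 0.0526 to 0.099). The Hsp90ab1 call was lost without fentanyl male 1, 3 or 7, saline male 1 or 3, or saline female 1, 2 or 4 (edgeR adjusted p from 0.0539 to 0.168). The sign held whichever library was left out. The size then ran from -0.87 to -0.65 for Hsph1 and from -0.78 to -0.59 for Hsp90ab1.

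The 2 sexes were therefore compared within each treatment, a comparison chosen after seeing the data. Among saline rats, females were at 175.7 ± 5.54 CPM of Hsph1 and males at 137.1 ± 2.12 CPM (SD, n = 3 each). The log2 difference was 0.34 ± 0.12 (SE) and did not pass (edgeR adjusted p = 0.269). Hsp90ab1 averaged 670.4 ± 27.4 CPM in saline females and 495.6 ± 71.5 CPM in saline males (SD, n = 3 each). Its log2 difference of 0.42 ± 0.11 (SE) did not pass by edgeR (adjusted p = 0.129) but did by DESeq2 (adjusted p = 0.0401) and with no filter on low counts (edgeR adjusted p = 0.00992). Saline females were the highest NAc group for both genes.

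Among fentanyl rats the sign was the other way. Hsph1 averaged 102.7 ± 18.0 CPM in fentanyl females and 137.0 ± 18.1 CPM in fentanyl males (SD, n = 4 each), with a log2 difference of -0.40 ± 0.11 (SE; edgeR adjusted p = 0.29). That difference was called without fentanyl female 8 (edgeR adjusted p = 0.0201), with the replicate block (0.0493) and with no filter on low counts (0.0349). Hsp90ab1 averaged 426.9 ± 44.5 CPM in fentanyl females and 513.0 ± 45.1 CPM in fentanyl males (SD, n = 4 each), with a log2 difference of -0.25 ± 0.10 (SE; edgeR adjusted p = 0.561). By edgeR, 0 of the 5 tested members were called in either of these comparisons, where 0.377% of genes were called between saline sexes and 0.0906% between fentanyl sexes. Hsp90ab1 and Hsph1 had an unadjusted p under 0.05 in both, as did 1521 of 13248 genes between saline sexes and 1049 between fentanyl sexes. DESeq2 called 1 member and 120 genes in saline rats, and 0 members and 15 genes in fentanyl rats.

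**Figure D3:**
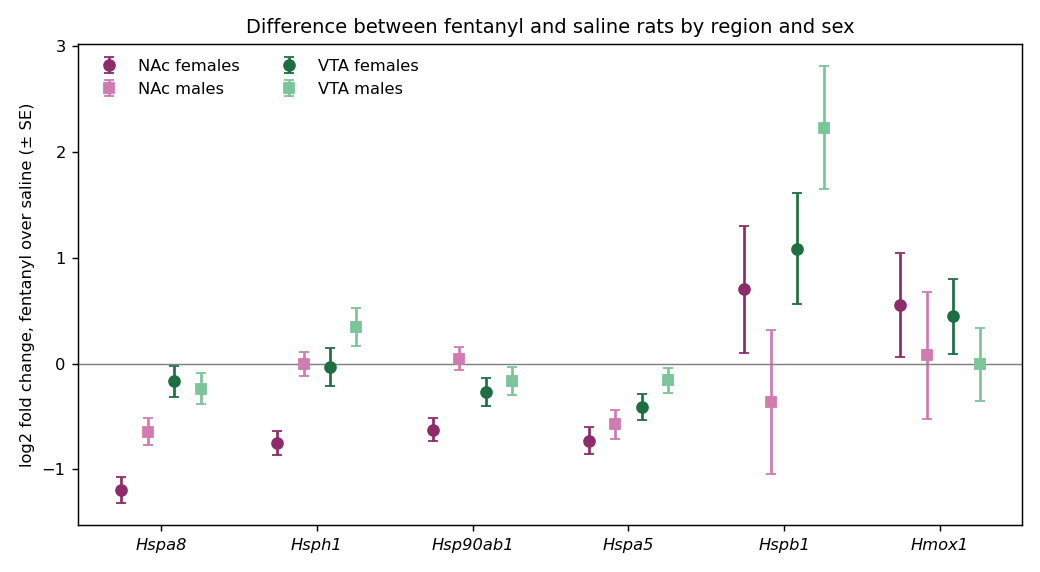
Log2 fold change of fentanyl over saline with its standard error, for each gene in females and males of each region. In NAc females the 4 abundant chaperones lie between -1.19 and -0.62; in NAc males Hspa8 and Hspa5 are below 0 while Hsph1 and Hsp90ab1 are near 0. Hspa8 was picked for its lower NAc level with fentanyl.

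In the VTA no gene, member or other, passed edgeR's test as described above. By that test, 0 of 6 members and 0% of 14400 genes passed in females, in males, in the mean of both sexes and in the difference between the sexes. Unadjusted p-values under 0.05 were found for 1 member in females (Hspa5), 1 in males (Hspb1), 3 in the mean of both sexes (Hspa5, Hsp90ab1 and Hspb1) and 0 in the sex difference. DESeq2 called 1 member, Hspb1, in the mean of both sexes. Over all genes, unadjusted p-values under 0.05 numbered 1098 in females, 648 in males, 1271 in the mean and 476 in the sex difference, and DESeq2 called 37, 7, 39 and 1 genes. With 2 saline rats per sex, the smallest group size here, a p over the threshold leaves sizeable differences possible.

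Hspb1, the small heat shock protein, had the largest VTA difference of the 6. It read 7.23, 11.1 and 7.04 CPM in fentanyl females, against 3.17 and 4.95 CPM in saline females. In males it read 13.8, 4.07 and 6.25 CPM with fentanyl, against 0.948 and 2.45 CPM with saline. The groups did not overlap in either sex, as was true with fentanyl higher for 10.5% of all genes in females and 10.7% in males. The log2 fold change was 1.66 ± 0.39 in the mean of both sexes (SE; edgeR adjusted p = 0.363), 1.09 ± 0.52 in females (SE; edgeR adjusted p = 0.654) and 2.23 ± 0.58 in males (SE; edgeR adjusted p = 0.956). With no filter on low counts the male value was called (edgeR adjusted p = 0.000346). The mean was called by DESeq2 (adjusted p = 0.0182) and by edgeR with no filter on low counts (adjusted p = 8.4e-06). It rests on 27 to 86 counts per fentanyl library and 6 to 29 per saline library.

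Hspa5 and Hsp90ab1 also had VTA groups apart in both sexes, with fentanyl lower. Hspa5 read 75.7, 79.1 and 78.4 CPM in fentanyl females against 111 and 100.1 CPM in saline females, and 93.8, 84.5 and 85.1 CPM in fentanyl males against 95.0 and 100.7 CPM in saline males. In 11.8% of all genes every fentanyl female likewise lay below every saline female, and in 13.8% every fentanyl male below every saline male. The Hspa5 log2 fold change in the mean of both sexes was -0.28 ± 0.09 (SE; edgeR adjusted p = 0.433). Hsp90ab1 stood at 560.1 to 719 CPM in fentanyl females against 789 to 799 CPM in saline females, and 678 to 721 CPM in fentanyl males against 780 to 793 CPM in saline males. Its log2 fold change was -0.22 ± 0.09 (SE; edgeR adjusted p = 0.546).

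Hspa8, free of its rule in this region, averaged 364 ± 39.3 CPM in fentanyl rats (SD, n = 6) and 423 ± 26.3 CPM in saline rats (SD, n = 4) of both sexes. The log2 fold change was -0.20 ± 0.10 (SE; edgeR adjusted p = 0.583), and the groups overlapped in each sex. Hsph1 averaged 120.2 ± 17.3 CPM in fentanyl rats (SD, n = 6) and 108.7 ± 19.2 CPM in saline rats (SD, n = 4), a log2 fold change of 0.16 ± 0.13 (SE; edgeR adjusted p = 0.71). Hmox1 averaged 6.10 ± 1.55 CPM in fentanyl rats (SD, n = 6) and 5.27 ± 0.955 CPM in saline rats (SD, n = 4), a log2 fold change of 0.22 ± 0.25 (SE; edgeR adjusted p = 0.801). The mitochondrial share was higher in fentanyl rats of both sexes in the VTA, as given above. With mitochondrial features left out before scaling, the log2 fold changes in the mean of both sexes were -0.20 for Hspa8, -0.28 for Hspa5, -0.21 for Hsp90ab1 and 1.66 for Hspb1. As in the NAc, this step could hardly move the values, and what else goes with the share was not tested.

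**Figure D4:**
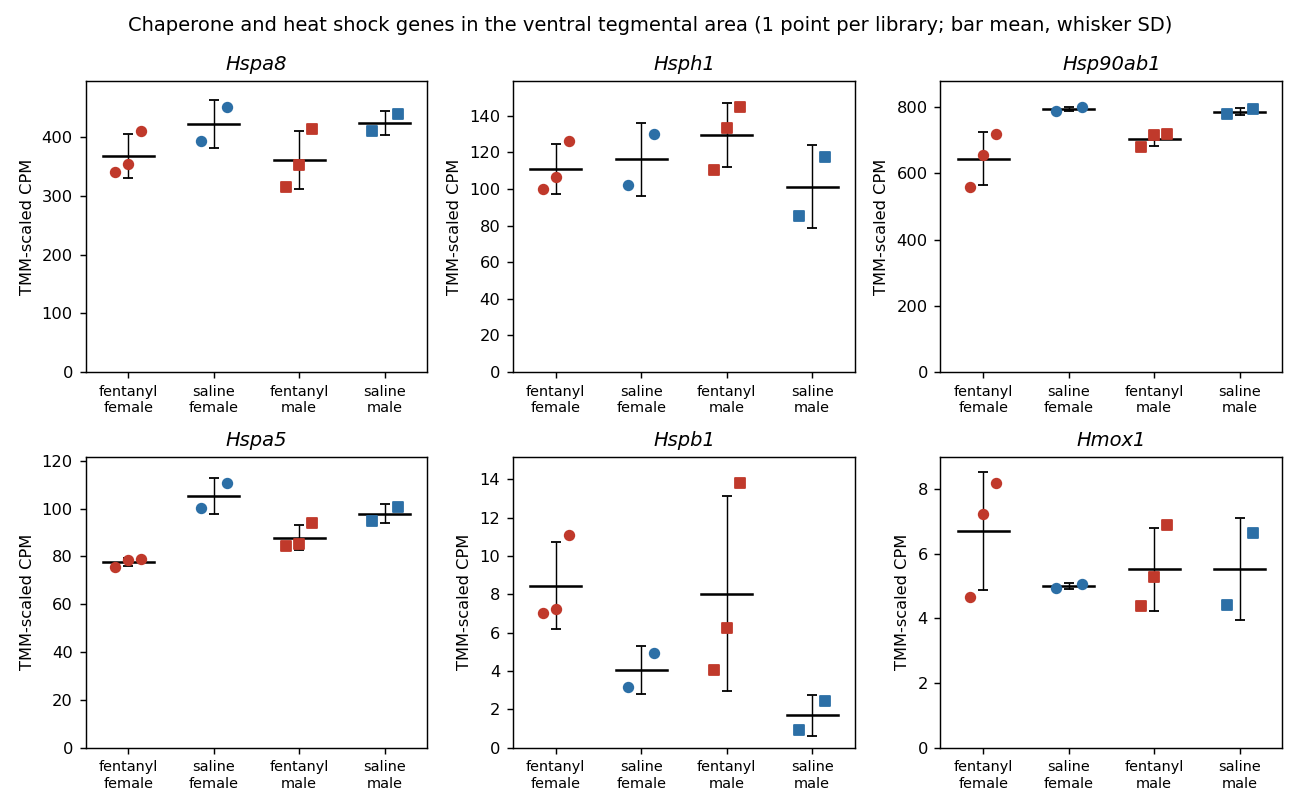
TMM-scaled CPM of the 6 genes in each VTA library, by sex and treatment, with bars at the mean and whiskers of 1 SD. Fentanyl rats (3 per sex) and saline rats (2 per sex) do not overlap for Hspb1 (fentanyl higher) and for Hspa5 and Hsp90ab1 (fentanyl lower); the other 3 genes overlap.

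Both regions were available from 10 rats, so the VTA could be set against the NAc within rats. Punches were 1.19 mm across in the VTA and 2.16 mm in the NAc, so punch size cannot be told apart from region. Hspa5, Hsp90ab1 and Hmox1 were higher in the VTA, Hsph1 was slightly lower and Hspb1 did not pass. Hspa8 was left out of the test because the NAc levels that chose it enter this comparison. That is 3 of 5 tested members called higher and 1 called lower, where 62.3% of 14795 genes were called, 31.7% higher and 30.6% lower. Regional differences were thus common among all genes.

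Hspa8 was higher in the VTA of 10 of 10 rats, by 1.29 ± 0.07 on the log2 scale (SE), a description only. Hmox1 was higher in 10 of 10 rats, by 1.70 ± 0.24 (SE; edgeR adjusted p = 8.43e-06). Hspa5 was higher in 10 of 10 rats, by 0.70 ± 0.07 (SE; edgeR adjusted p = 1.31e-07). Thus HSC70, haem oxygenase 1 and BiP messages all stood above their NAc level in every rat that gave both regions. Hsp90ab1 was also higher in 10 of 10 rats, by 0.53 ± 0.06 (SE; edgeR adjusted p = 8.77e-07). Hspb1 was higher in 6 of 10 rats, with a log2 difference of 0.09 ± 0.23 (SE; edgeR adjusted p = 0.755).

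Hsph1 was the 1 member lower in the VTA, with a log2 difference of -0.22 ± 0.08 (SE; edgeR adjusted p = 0.0278), although its VTA level exceeded its NAc level in 5 of 10 rats. The call was lost by DESeq2 (adjusted p = 0.0585) and with no filter on low counts (edgeR adjusted p = 0.0517). It was also lost without saline male 1 (edgeR adjusted p = 0.195), saline female 2 (0.155), fentanyl male 1 (0.0664), fentanyl female 7 (0.0587) or fentanyl female 1 (0.0533).

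The within-rat ratio of VTA to NAc CPM was split by treatment. For Hsph1 it was 1.08 ± 0.216 in fentanyl rats (SD, n = 6) and 0.705 ± 0.111 in saline rats (SD, n = 4), so the VTA was the lower region in all saline rats. For Hspa5 it was 1.83 ± 0.268 in fentanyl rats (SD, n = 6) and 1.47 ± 0.0370 in saline rats (SD, n = 4). For Hspa8 it was 3.12 ± 0.490 in fentanyl rats (SD, n = 6) and 2.01 ± 0.558 in saline rats (SD, n = 4). For Hsp90ab1 it was 1.47 ± 0.141 in fentanyl rats (SD, n = 6) and 1.45 ± 0.331 in saline rats (SD, n = 4). For Hspb1 the values in the same rats were 1.75 ± 1.12 and 0.884 ± 0.525 (SD). Hmox1 went the other way, at 2.77 ± 1.06 with fentanyl and 4.71 ± 2.19 with saline (SD). The fentanyl and saline ranges of the ratio overlapped for each gene. These ratios contain the NAc levels already described.

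**Figure D5:**
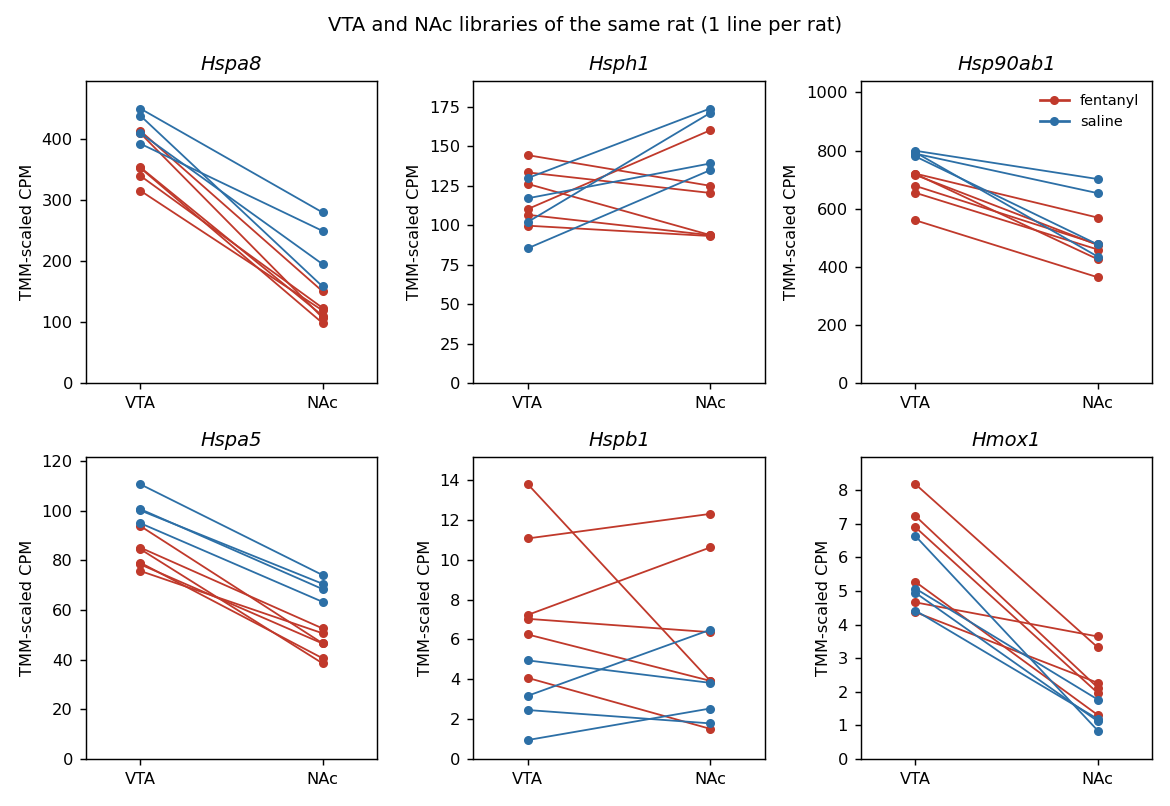
TMM-scaled CPM in the VTA and the NAc of the 10 rats that gave both regions, 1 line per rat, coloured by treatment. Hspa8, Hsp90ab1, Hspa5 and Hmox1 are higher in the VTA of 10 of 10 rats; Hsph1 is lower in the VTA of the 4 saline rats.

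Whether the fentanyl effect differed between regions was tested in the same rats, as VTA minus NAc. By edgeR 0 of the 5 tested members and 0% of 14795 genes were called. Hspa5 and Hsph1 had an unadjusted p under 0.05, as did 840 genes in all, and DESeq2 called 0 members and 1 gene. The difference was 0.63 ± 0.16 on the log2 scale for Hsph1 (SE; edgeR adjusted p = 0.781) and 0.32 ± 0.14 for Hspa5 (SE; edgeR adjusted p = 0.857). Without the filter on low counts Hsph1 was called (edgeR adjusted p = 0.0321). For Hspa8, described only, it was 0.68 ± 0.14 (SE). Hsp90ab1 at 0.06 ± 0.12 (SE; edgeR adjusted p = 0.966), Hspb1 at 0.95 ± 0.45 (SE; edgeR adjusted p = 0.857) and Hmox1 at -0.76 ± 0.49 (SE; edgeR adjusted p = 0.889) did not pass. The lower NAc levels of Hsph1 and Hspa5 with fentanyl were therefore not shown to be particular to the NAc.

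Once the mean of each region, sex and treatment was removed, no pair of members passed a test for varying together from library to library. Over the 24 libraries, 0 of 15 pairs passed by Pearson's r or Spearman's rho under 1e+05 permutations within groups with Benjamini-Hochberg adjustment. The lowest adjusted p was 0.625 for r and 0.75 for rho. These permutation tests were added after the data were seen. They treated the libraries as independent, although 10 rats gave both regions. Hspa8 and Hsp90ab1, an HSP70 and an HSP90 that share clients, had r = 0.369 (permutation p = 0.19) and rho = 0.275 (permutation p = 0.3), and r = 0.467 without the 2 libraries farthest from the median of Hspa8.

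With treatment and sex left in and only the region means removed, the Pearson r of log2 CPM between Hspa8 and Hspa5 over the 24 libraries was 0.81, the third highest for Hspa5 among 10838 genes with at least 5 CPM. That value contains the NAc difference by which Hspa8 was chosen. With the mean of each group removed, r between them was 0.0531 (permutation p = 0.9) and rho was -0.0391 (permutation p = 0.89), and r was -0.38 without the 2 libraries farthest from the median of Hspa8. The genes most like Hspa8 were ENSRNOG00000020277 on chromosome 10 (r = 0.89) and ENSRNOG00000027514 on chromosome 1 (r = 0.86), which the files do not name. These values too contain the NAc difference by which Hspa8 was chosen. The highest r with any gene was 0.93 for Hsp90ab1, 0.85 for Hsph1 and 0.84 for Hspa5. For Hmox1 it was 0.76 and for Hspb1 0.68. These libraries share groups and depth, so the values are a description.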

How the data were processed

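Bulk RNA-seq libraries (paired reads, ribosomal RNA depleted) of rat NAc and VTA punches were deposited by the authors as raw read counts per gene, 1 table per library. The submitters' processing notes name STAR 2.5.2b, Subread 1.5.2 with featureCounts, Trimmomatic 0.36 and DESeq2; their settings, strand use, handling of reads with several placements and the genome build were not given in the sources used here.

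Groups came from the labels, and each library of a region from a separate rat by its animal code. Counts were fitted with edgeR 4.0.16 in R 4.3.3 (quasi-likelihood, robust; TMM; low-count filter with a minimum of 10 counts), once per region with 4 groups of sex and treatment, and with rat as a block for the 10 rats with both regions, whose libraries pair by animal code (mean correlation of their deviations 0.0358, from -0.0297 to 0.13). P-values were two-sided and adjusted by Benjamini-Hochberg over all genes tested, with calls under 0.05. SE is the absolute log2 fold change over the square root of F. All 6 members passed the filter in each of these fits. Every member was named in every comparison. The members, lists and tests were chosen with earlier results of these data known. No pair of libraries within a group was a copy: differences exceeded counting noise in 26 of 26 pairs. Lists of other chaperone genes and of cell type markers are symbol lists, and the tables and RefSeq names share no identifier, so those lists were not analysed here. For the same reason genes most like a member were taken without the condition that they carry a symbol. Alternatives were DESeq2 1.42.0, no filter, a replicate block, each sex alone, mitochondrial features left out, and each library or rat left out.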

Additional observations from a re-analysis of the deposited data

Results flagged for a closer look

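Hsph1 in fentanyl female 8 of the NAc, at 129.7 CPM, stood farther from the other 3 fentanyl females than a test for an outlying value allows; 12 groups of values were checked this way, and chance flags about 1 in 20 groups. The fentanyl effect on Hsp90ab1 in the NAc differed between the sexes by -0.67 on the log2 scale (female minus male). That on Hsph1 differed by -0.74. Both differences passed edgeR's test over all genes and both calls were lost when certain single libraries were left out, as given with the results.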

How the results depend on the processing

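Counts of calls over all genes moved with the tool and the filter. DESeq2 called 6 genes in NAc males, 256 for the NAc sex difference, 120 between the sexes of saline rats, 37 in VTA females, 7 in VTA males, 39 in the VTA mean of both sexes, 1 for the VTA sex difference and 1 for the regional difference of the fentanyl effect. With no filter on low counts the same counts were 46, 388, 210, 418, 114, 499, 109 and 148, and 63 genes were called between the sexes of fentanyl rats. With 1 sex alone in the fit, 1102 genes were called in NAc females, 2 in NAc males, 5 in VTA females and 2 in VTA males. Leaving out 1 library or rat at a time gave 755 to 2018 calls in NAc females, 0 to 2 in NAc males, 315 to 1299 in the NAc mean and 20 to 299 for the NAc sex difference. It gave 10 to 136 between saline sexes, 11 to 39 between fentanyl sexes, 0 to 11 in VTA females, 0 to 1 in VTA males, 0 to 2 in the VTA mean, 0 to 5 for the VTA sex difference and 0 to 1 for the regional difference of the effect. The cause of these shifts was not tested.

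In the NAc, the mean correlation of same-numbered deviations was -0.0105 over 12 pairs (-0.108 to 0.154). In the VTA it was 0.000585 over 10 pairs (-0.285 to 0.194). Libraries from different regions of the same rat gave only 0.0358 over 10 pairs (-0.0297 to 0.13). A measure this low for known pairs cannot tell whether replicate numbers pair libraries within a region. With the numbers as a replicate block, 341 genes were called in the NAc mean, 236 for the NAc sex difference, 13 between saline sexes, 30 between fentanyl sexes and 1 in the VTA mean. Under the block the sign turned for values near 0 that were never called: on the log2 scale Hspb1 in NAc males (0.12), Hsph1 in NAc males (0.0043) and VTA females (0.024), Hmox1 in VTA males (0.080), and Hspa8 for the VTA sex difference (-0.055). Hmox1 in VTA males was also above 0 by DESeq2 (0.00042) and with mitochondrial features left out (0.00048).

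Of 1163 alternative values for the members, 1092 kept their sign and their side of the threshold, 26 lost a call, 10 gained one, 34 turned sign and 1, Hspa8 in the NAc mean under the block (-0.83), moved by more than its SE. The lowest adjusted p among the values that turned sign was 0.609. Leaving out single libraries turned the sign of Hsp90ab1 (-0.037 to 0.16), Hspb1 (-0.72 to 0.70), Hsph1 (-0.095 to 0.051) and Hmox1 (-0.23 to 0.49) in NAc males and of Hspb1 in the NAc mean (-0.022 to 0.70). It also turned Hspb1 between saline sexes (-0.31 to 1.10), Hspa5 between fentanyl sexes (-0.0078 to 0.21), Hsph1 in VTA females (-0.20 to 0.15), Hmox1 in VTA males (-0.26 to 0.31) and Hspa8 for the VTA sex difference (-0.022 to 0.18). The others were Hspb1 between regions (-0.17 to 0.32) and Hsp90ab1 for the regional difference of the effect (-0.0020 to 0.10). In NAc females, Hsph1, Hsp90ab1 and Hspa5 stayed called under all 19 alternatives each. Hmox1 fell under the low-count filter in 2 NAc fits with a library left out and in the NAc fit of males alone.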
